A study of Mus musculus with 30 samples.

Results

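Resting cells of the mouse dendritic line DC3.2 were compared between a line with both IRF1 and IRF2 targeted, labelled DKO, and the WT line. The members are the 4 libraries of these groups, 2 DKO and 2 WT, out of 30 libraries in the series, chosen by genotype and treatment and not by any measured value. DKO and WT cells were kept in media for 2 h. The same lines were also given IFNα at 5000 U/mL or IFNγ at 2 ng/mL for 2 h, and IRF2KO and IRF1KO lines, each with 1 of the factors targeted, were kept in media alongside, again with 2 libraries a group. The sample titles mark the single lines by an sg code and WT as nosg. No label names a guide that targets nothing, and none says whether a line is 1 clone or a pool, so the loss of the factors, the targeting itself and the history of a line cannot be told apart. Nothing in the labels says that the 2 libraries of a group were grown apart. The p-values therefore reflect only how far libraries of a group differ, pooled over the 12 groups fitted, and that spread may be technical.

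IRF1 and IRF2 are transcription factors of the interferon regulatory factor family, which bind DNA elements built around repeats of GAAA. IRF1 is best known as an interferon-induced activator of antigen presentation and antiviral genes. IRF2 binds much the same elements, was first described as an antagonist of IRF1, and is also known to activate some genes in cells that have not met interferon.

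Values are TPM, each transcript's share of a library corrected for its length and scaled to one fixed total, so read totals and depth are unknown. Differences are DKO minus WT on the log2(TPM + 1) scale with their SE, which understates the change of genes near 0 TPM, and a gene was called at a limma adjusted p under 0.05. Between 10911 and 11026 genes reached 1 TPM in the 4 libraries, and replicates correlated across genes at r = 0.988 in DKO and 0.987 in WT. The mRNA of the targeted genes does not check the lines, because a disrupted gene can go on being transcribed. Irf1 had 28.1 and 36.0 TPM in DKO, against 19.7 and 22.5 TPM in WT, and was not called. Irf2 had 20.1 and 20.96 TPM in DKO, against 23.4 and 25.2 TPM in WT, and was not called either. Among dendritic cell markers Flt3 and Siglech were listed at 0 in all 4 libraries and Xcr1 and Clec9a stayed under 1 TPM, while Id2, Batf3 and Irf8 were present, so the label of a dendritic cell line is met by only some of its defining genes.

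Resting DKO cells held less mRNA for 10 of 22 genes of MHC class I presentation, for the pore-forming protein gene Gsdmd and for the RNA sensors Ifih1, Ddx58 and Tlr3, and far more mRNA for guanylate-binding proteins. Of 11842 genes tested, 63 were called lower in DKO than in WT (0.532%) and 27 higher (0.228%), together 0.76%. A replicate block, which removes what same-numbered libraries share, gave 105 lower (0.887%) and 85 higher (0.718%), and all 90 genes were among them. Without DKO replicate 1 the number called was 54, without DKO replicate 2 it was 47, without WT replicate 1 it was 42 and without WT replicate 2 it was 53. The 90 called genes had groups that did not overlap, as had 40% of all genes tested. Groups that do not overlap fix the sign of DKO minus WT within each replicate number. So 63 of 63 lower and 27 of 27 higher genes had the same sign in both numbers, which adds no support. Among the falls, 45 of the 63 lower genes passed 2-fold on the log scale and 19 passed 4-fold, and 21 of them had less than 1 TPM in both DKO libraries. Of the 27 higher genes 14 passed 2-fold and 8 passed 4-fold, and 7 of the 27 were guanylate-binding protein genes. The median over all genes was 0.06. RNA was taken from whole cultures, so fewer cells that express a gene and less RNA per cell cannot be told apart here or below.

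**Figure D1:**
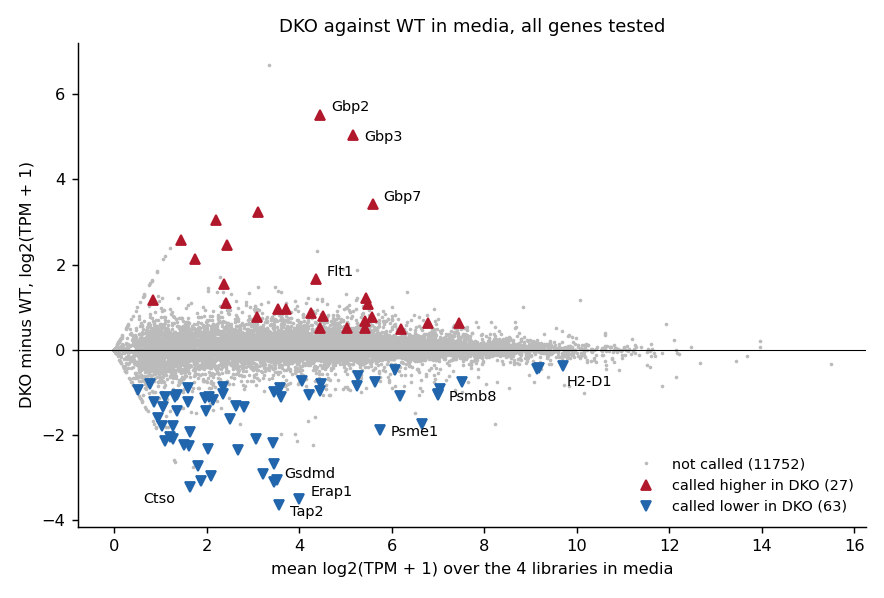
Difference between DKO and WT in media, in log2(TPM + 1), plotted against the mean log2(TPM + 1) of the 4 libraries for the 11842 genes tested. Called genes are marked by triangles, 27 pointing up (higher in DKO) and 63 pointing down (lower in DKO), and the uncalled point at the top is the entry AB349811, with 26.5 and 388 TPM in the DKO libraries and 0 in both WT libraries.

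Large falls were in genes that prepare peptides for MHC class I, the surface molecules that show pieces of a cell's own proteins to cytotoxic T cells. Tap2, which encodes a chain of the transporter that moves peptides into the endoplasmic reticulum, had 2.73 and 2.02 TPM in DKO, against 43.9 and 37.6 TPM in WT. Erap1, the aminopeptidase that trims those peptides, had 3.90 and 3.65 TPM in DKO, against 50.2 and 56.0 TPM in WT. Both DKO libraries lay far under both WT libraries for each gene. The differences were −3.63 ± 0.29 for Tap2 (adjusted p = 1.39e-06) and −3.50 ± 0.23 for Erap1 (adjusted p = 2.24e-07). Tap1, the partner chain of Tap2, had 7.59 and 8.06 TPM in DKO, against 15.5 and 15.3 TPM in WT, a difference of −0.89 ± 0.17. The mean TPM of Tap2 was 17.2-fold higher in WT than in DKO, and whether the 2 chains fell by different amounts was not tested.

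Subunits of the immunoproteasome, a form of the proteasome that cuts peptides suited to MHC class I, were also lower. Psmb9 had 2.91 and 3.05 TPM in DKO, against 31.9 and 32.1 TPM in WT, a difference of −3.05 ± 0.22 (adjusted p = 6.1e-07). Psmb8 had 93.7 and 81.1 TPM in DKO, against 180.45 and 186.7 TPM in WT, a difference of −1.07 ± 0.12. Psmb10 had 50.1 and 46.5 TPM in DKO, against 117 and 92.0 TPM in WT, a difference of −1.09 ± 0.23. Of these 3 catalytic subunits Psmb9 had the lowest level in DKO and also in WT. The PA28 activator, which opens the proteasome's gate, is encoded by Psme1 and Psme2. Psme1 had 30.8 and 23.5 TPM in DKO, against 120 and 86.6 TPM in WT (−1.88 ± 0.20), and Psme2 had 58.6 and 49.6 TPM in DKO, against 194 and 170 TPM in WT (−1.73 ± 0.25). Psmb9, Tap1, Psmb8 and Tap2 stand next to one another on chromosome 17 (34182030 to 34216321 on GRCm38.p6), with 0.2 kb between Psmb9 and Tap1, and Psme1 and Psme2 lie 5.9 kb apart on chromosome 14.

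Of 22 genes of MHC class I presentation 10 fell, and the median of the 22 was −0.62. Heavy chain genes were among them. H2-K1 had 146 and 134 TPM in DKO, against 237 and 236.0 TPM in WT (−0.75 ± 0.09, adjusted p = 0.000279), and H2-D1 had 720.3 and 726 TPM in DKO, against 932 and 961 TPM in WT (−0.39 ± 0.08, adjusted p = 0.0336). B2m, the light chain, had −0.12 ± 0.12, Tapbp, which bridges the transporter to the heavy chain, had −0.23 ± 0.29, and Nlrc5, the transactivator of class I genes, had −0.36 ± 0.27, and these were not called. H2-T23 had 2831 and 2607 TPM in DKO, against 3614 and 6678 TPM in WT, and was not called (−0.85 ± 0.58, adjusted p = 0.862). H2 genes resemble one another closely, so reads could be shared out between them in the authors' quantification. Tap1, Psmb10 and H2-D1 lost their calls whichever of the 4 libraries was left out (adjusted p from 0.121 to 0.193, from 0.0847 to 0.44 and from 0.191 to 0.281), while Tap2, Erap1, Psmb9, Psmb8, Psme1, Psme2 and H2-K1 were called each time. With the 2 compared groups fitted alone, or with a fold of at least 2 required, 3 of the 22 were called. In both, Tap2, Erap1 and Psmb9 were called and Psmb8, Psme1, Psme2 and H2-K1 were not. Of the 18 constitutive proteasome subunits none was called by limma, with 0 higher and 1 lower at an unadjusted p under 0.05, and their differences ran from −0.33 to 0.09. MHC class II presentation had no called gene among 13 either, with 0 higher and 1 lower at an unadjusted p under 0.05 and a median of 0.04. That gene was Ctss, a lysosomal protease that cuts the invariant chain, with −0.44 ± 0.10 (adjusted p = 0.0622).

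**Figure D2:**
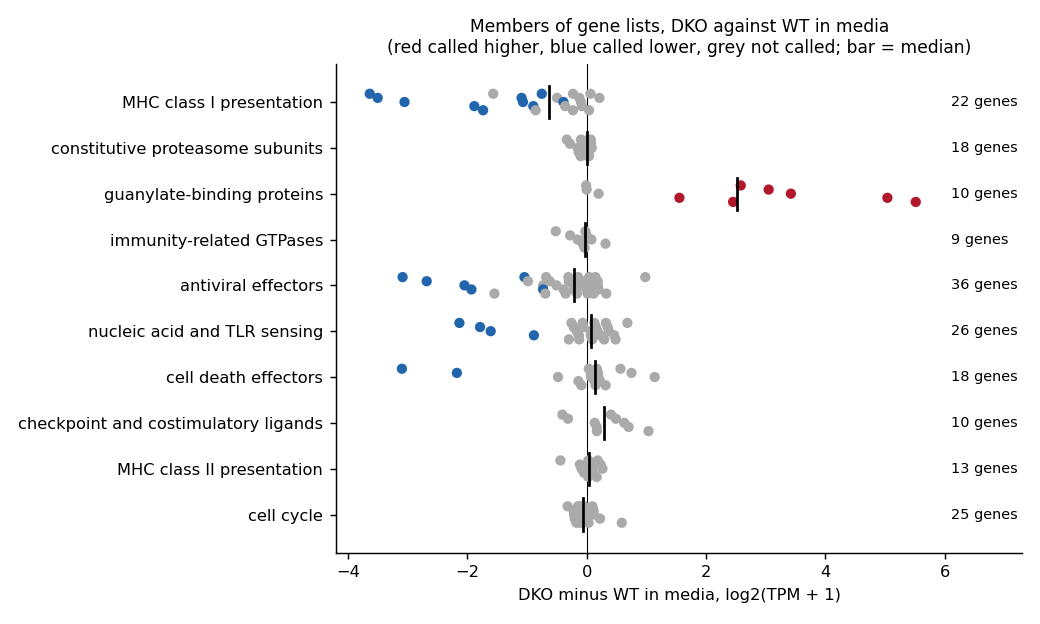
Difference between DKO and WT in media, in log2(TPM + 1), for each tested member of 10 gene lists, with the list median as a black bar. Blue points (called lower) make up 10 of 22 class I genes, red points (called higher) make up 7 of 10 guanylate-binding protein genes, and the constitutive proteasome, class II and cell cycle lists hold only grey points (not called).

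Gsdmd, which encodes gasdermin D, the protein that forms membrane pores in pyroptosis, had 2.92 and 2.58 TPM in DKO, against 33.7 and 28.5 TPM in WT. The difference was −3.09 ± 0.24 (adjusted p = 1.39e-06). The DKO libraries lay far below the WT libraries, and Gsdmd was called whichever library was left out. It was 1 of 2 called members of 18 tested cell death genes, both lower. Genes that act upstream of gasdermin D were not called, with Casp1 at 0.15 ± 0.23, Casp4 at 0.07 ± 0.39 and Pycard, the adaptor ASC, at 0.13 ± 0.10. Fas, a death receptor, had 41.4 and 25.4 TPM in DKO, against 18.6 and 10.8 TPM in WT (1.14 ± 0.27, adjusted p = 0.0844), and it passed under the replicate block (adjusted p = 0.00163).

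Several large falls were in genes of lysosomes, the endoplasmic reticulum and mitochondria. Ctso, a lysosomal cysteine protease, had 0.05 and 0.00 TPM in DKO, against 9.10 and 7.97 TPM in WT (−3.22 ± 0.17, adjusted p = 1.22e-08). Rcn1, a calcium-binding protein of the endoplasmic reticulum, had 0.52 TPM in both DKO libraries, against 10.4 and 11.1 TPM in WT (−2.96 ± 0.16). Acadl, an acyl-CoA dehydrogenase of mitochondrial fatty acid oxidation, had 3.67 and 1.47 TPM in DKO, against 24.7 and 24.2 TPM in WT (−2.91 ± 0.26). The 3 genes were named by a rule that required no overlap between the lines, and Ctso was almost without signal in DKO. Arsb, a lysosomal sulfatase, had 0.26 and 0.50 TPM in DKO, against 6.49 and 9.90 TPM in WT (−2.72 ± 0.23). Agt, the precursor of angiotensin, had 1.10 and 0.58 TPM in DKO, against 12.9 and 5.01 TPM in WT (−2.33 ± 0.48, adjusted p = 0.0332), and its call was lost without DKO replicate 1, DKO replicate 2 or WT replicate 1 (adjusted p over the 4 omissions from 0.0246 to 0.481). Acadl was the called member of 15 tested fatty acid oxidation genes, whose median was 0.09. With the compared groups fitted alone Acadl, Arsb and Agt were not called, while Ctso and Rcn1 were. Of 11 cathepsin genes Ctso and Ctsl were called lower, and Ctsl, at 478 and 479 TPM in DKO, against 628 and 683 TPM in WT (−0.45 ± 0.10, adjusted p = 0.0379), lost its call whichever library was left out (adjusted p from 0.131 to 0.367).

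**Figure D3:**
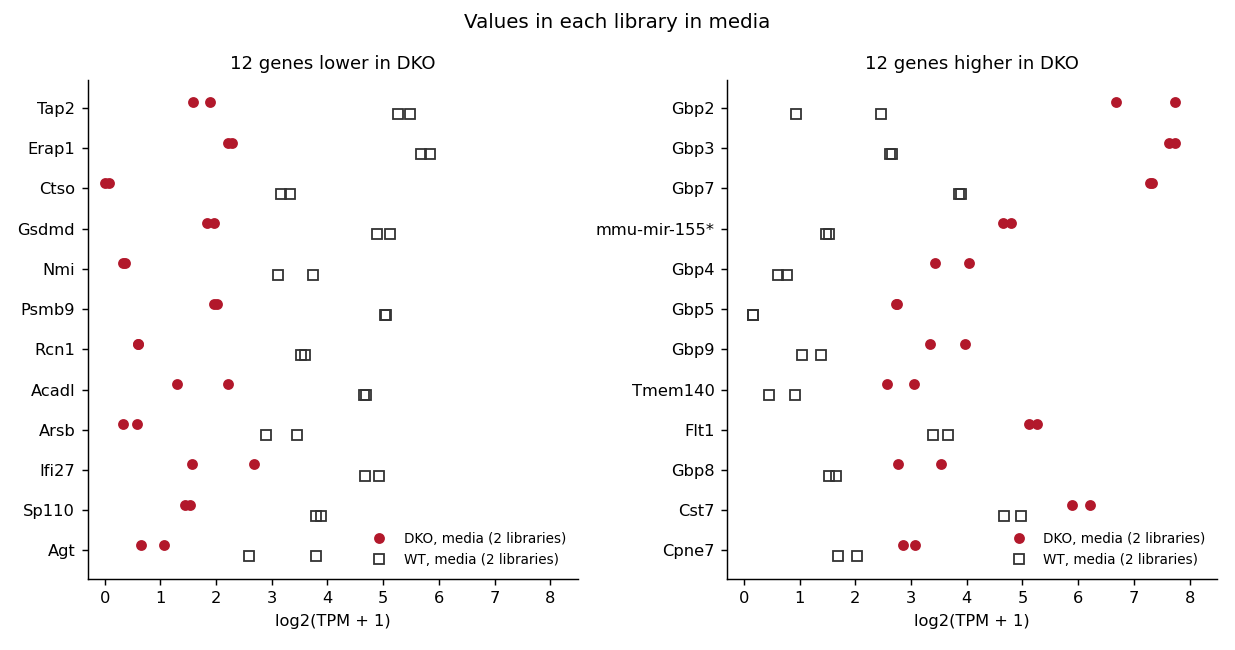
Values of each library in media, in log2(TPM + 1), for the 12 called genes with the largest fall and the 12 with the largest rise. Genes were taken only if their mean in the higher line was 5 TPM or more and the lines did not overlap. Filled circles are the 2 DKO libraries and open squares the 2 WT libraries. Gbp2 in WT and Agt in WT show the widest gaps between replicates of a line.

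Of the sensing genes, 3 receptors of double-stranded RNA were lower in DKO. Ifih1, which encodes MDA5, had 0.05 and 0.00 TPM in DKO, against 3.66 and 3.32 TPM in WT (−2.13 ± 0.15, adjusted p = 3.9e-07). Ddx58, which encodes RIG-I, had 0.18 and 0.04 TPM in DKO, against 1.86 and 2.98 TPM in WT (−1.61 ± 0.19). Tlr3, the endosomal receptor, had 0.29 and 0.31 TPM in DKO, against 3.39 and 3.57 TPM in WT (−1.78 ± 0.19). All 3 sensors were under 1 TPM in both DKO libraries and above it in both WT libraries. Dhx58, the related regulator LGP2, had 1.12 and 1.35 TPM in DKO, against 2.85 and 3.40 TPM in WT (−0.88 ± 0.19, adjusted p = 0.043), and its call was lost whichever library was left out (adjusted p from 0.174 to 0.385). These were the 4 called members of 26 nucleic acid and TLR sensing genes, whose median was 0.07. With the compared groups fitted alone 2 of the 26 were called lower, and with a fold of at least 2 required, or only genes with a mean of at least 5 TPM tested, 1 was. Tlr7, a receptor for single-stranded RNA, had 0.49 ± 0.19 and was not called. The adaptor Mavs had 0.07 ± 0.15 and Tmem173, which encodes STING, had 0.16 ± 0.14. Gca, which encodes the calcium-binding protein grancalcin and lies 18.1 kb from Ifih1 on chromosome 2, had 0.16 and 0.22 TPM in DKO, against 1.78 and 1.79 TPM in WT (−1.23 ± 0.16, adjusted p = 0.000453).

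Of 36 tested antiviral effectors 6 fell, and the median of the 36 was −0.22 (1 rose and 9 fell under the replicate block, 3 fell with a fold of at least 2 required and 1 fell with the compared groups fitted alone). Nmi, which encodes a partner of STAT proteins, had 0.29 and 0.25 TPM in DKO, against 12.3 and 7.69 TPM in WT (−3.08 ± 0.20, adjusted p = 1.42e-07). Ifi27 had 5.40 and 1.96 TPM in DKO, against 29.5 and 24.4 TPM in WT (−2.68 ± 0.28). Parp14, an ADP-ribosyltransferase, had 0.20 and 0.09 TPM in DKO, against 4.0 and 3.46 TPM in WT (−2.05 ± 0.20). These were at or under 5.40 TPM in every DKO library, and of them only Parp14 kept its call with the compared groups fitted alone. The other called members were Epsti1 (−1.93 ± 0.23), Ifitm3, which restricts the entry of viruses (−1.04 ± 0.18), and Parp9, a neighbour of Parp14 on chromosome 16 (−0.73 ± 0.15). Ifitm3 lost its call without DKO replicate 1, DKO replicate 2 or WT replicate 2 (adjusted p over the 4 omissions from 0.00623 to 0.178), and Parp9 lost it whichever library was left out (adjusted p from 0.108 to 0.324). Isg15, a ubiquitin-like modifier, had 0.29 and 0.24 TPM in DKO, against 3.72 and 1.88 TPM in WT (adjusted p = 0.0914), and passed under the replicate block (adjusted p = 0.00521). Many classic interferon-induced genes were near 0 TPM in both lines at rest, among them Ifit1 at 0.27 and 0.00 TPM in DKO, against 0.14 and 0.05 TPM in WT. The nuclear body gene Sp110, outside the list, had 1.73 and 1.91 TPM in DKO, against 13.8 and 12.8 TPM in WT (−2.34 ± 0.16, adjusted p = 2.19e-07). The helicase gene Mov10 had 3.03 and 3.08 TPM in DKO, against 15.8 and 16.6 TPM in WT (−2.09 ± 0.19).

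The genes that rose most encode guanylate-binding proteins, GTPases that coat vacuoles and bacteria in the cytosol. Gbp3 had 213 and 197 TPM in DKO, against 5.34 and 5.19 TPM in WT (5.04 ± 0.25, adjusted p = 8.2e-09). Gbp7 had 155 and 159 TPM in DKO, against 13.6 and 13.8 TPM in WT (3.42 ± 0.16, adjusted p = 8.2e-09). Gbp2 had 214 and 101 TPM in DKO, against 4.48 and 0.92 TPM in WT (5.51 ± 0.41, adjusted p = 6.1e-07). These 3 genes were at or under 13.85 TPM in every WT library and above 100 TPM in every DKO library, and the mean TPM of Gbp3 was 38.9-fold that of WT. Gbp4 had 9.76 and 15.4 TPM in DKO, against 0.70 and 0.52 TPM in WT (3.05 ± 0.28). Gbp5 had 5.76 and 5.65 TPM in DKO, against 0.12 TPM in both WT libraries (2.58 ± 0.22). Gbp9 (2.45 ± 0.32) and Gbp8 (1.55 ± 0.32) also rose, so that 7 of 10 tested members were called higher, and the median of the 10 was 2.52. Gbp8 lost its call without DKO replicate 2, WT replicate 1 or WT replicate 2 (adjusted p over the 4 omissions from 0.0284 to 0.458), and the other 6 were called each time. With the compared groups fitted alone 3 of the 10 were called higher, namely Gbp3, Gbp7 and Gbp5, and Gbp2 was not. Gbp6, Gbp10 and Gbp11 stayed under 1 TPM in all 4 libraries. Gbp5, Gbp7, Gbp3 and Gbp2 lie together on chromosome 3 (142496934 to 142638008) and Gbp8, Gbp9 and Gbp4 on chromosome 5 (105012513 to 105139586). The genes are close paralogs, and the authors' quantification could move reads between them.

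IRF1 and IRF2 bind elements built around GAAA repeats, so promoters were searched for such letters. Binding itself was not tested. The letters GAAA, any 2 bases and GAAA again, on either strand, were searched in RefSeq windows of GRCm38.p6. A window is the 250 bases before an annotated start, and a gene can have more than 1. They stood in the windows of 6 of 20 genes called higher that have a window (30.0%), of 2 of 47 genes called lower (4.26%), and of 285 of 8476 tested genes (3.36%). Of all 32851 windows 2.98% hold them. With the shorter letters AA, any 2 bases and GAAA, chosen after seeing the data, the shares were 50% of the higher genes, 38.3% of the lower genes and 19% of tested genes, so the lower genes were near the share of all tested genes with the longer letters and above it with the shorter ones. The higher genes with a match were Gbp2, Gbp3, Gbp5, Gbp7, Tmem140 and Coro2a, and the lower ones were Mndal and Slfn9. The 4 Gbp genes are paralogs and may share promoter sequence by descent, so their windows are not independent examples. The 100 bases before an annotated start are shown for 3 Gbp genes, which had the largest rises, and for the 2 lower genes, which are the exceptions on that side. Gbp3 and Mndal have 2 windows each. The starts shown for them lie inside the RefSeq spans of the genes, chr3:142560016-142573213 for Gbp3 and chr1:173857215-173880382 for Mndal. The bases are written 5′ to 3′ on the gene's strand, with each match in capitals. A match read on the other strand appears as TTTC, any 2 bases and TTTC.
Gbp7, plus strand, chr3:142530236-142530335: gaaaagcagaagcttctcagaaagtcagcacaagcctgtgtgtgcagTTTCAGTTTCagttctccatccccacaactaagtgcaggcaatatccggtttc
Gbp3, plus strand, chr3:142559944-142560043: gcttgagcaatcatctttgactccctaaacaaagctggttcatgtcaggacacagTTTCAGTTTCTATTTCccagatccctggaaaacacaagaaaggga
Gbp2, plus strand, chr3:142620563-142620662: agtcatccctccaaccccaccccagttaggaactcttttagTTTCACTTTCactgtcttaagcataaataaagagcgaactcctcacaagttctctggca
Slfn9, minus strand, chr11:82991831-82991930: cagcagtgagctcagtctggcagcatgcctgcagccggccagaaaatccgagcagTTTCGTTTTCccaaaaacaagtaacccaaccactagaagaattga
Mndal, minus strand, start 1, chr1:173880188-173880287: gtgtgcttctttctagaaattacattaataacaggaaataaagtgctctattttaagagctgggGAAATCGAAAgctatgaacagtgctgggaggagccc
Mndal, minus strand, start 2, chr1:173879959-173880058: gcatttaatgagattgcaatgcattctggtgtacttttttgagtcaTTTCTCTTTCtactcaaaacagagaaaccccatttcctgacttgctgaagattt

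Distances are to the start that each window belongs to, which for Gbp3 and Mndal is inside the gene's span. In the windows of the 3 Gbp genes the matches begin between 59 and 39 bases before that start, and Gbp3 holds 2 overlapping ones that form an unbroken run. Those of the 2 lower genes begin between 54 and 36 bases before it. A match of these letters is a description of the window and shows no binding. Tap2, Gsdmd and Rcn1 have no window in the table. Slfn9, of the Schlafen family, had 12.7 and 16.9 TPM in DKO, against 28.8 and 30.2 TPM in WT (−0.96 ± 0.21, adjusted p = 0.0388), and lost its call whichever library was left out (adjusted p from 0.0662 to 0.489). Mndal, of the PYHIN family, had 6.58 and 7.15 TPM in DKO, against 14.3 and 14.7 TPM in WT (−0.98 ± 0.16, adjusted p = 0.0043), and lost its call without DKO replicate 1, WT replicate 1 or WT replicate 2 (adjusted p over the 4 omissions from 0.0373 to 0.072). Mndal and Ifi203 resemble each other, so their reads could be shared out between them.

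Among called genes outside the GTPases, the largest rise was in the entry that the authors' table names mmu-mir-155*, after a microRNA of immune activation. It had 26.9 and 24.1 TPM in DKO, against 1.77 and 1.89 TPM in WT (3.23 ± 0.27, adjusted p = 2.7e-06). The table does not show which part of the miR-155 transcript the reads came from, so no mature arm is meant by this value. Flt1, a receptor for vascular endothelial growth factor, had 33.8 and 37.6 TPM in DKO, against 9.54 and 11.7 TPM in WT (1.66 ± 0.20, adjusted p = 0.000191). Tmem140 had 4.96 and 7.26 TPM in DKO, against 0.37 and 0.89 TPM in WT (2.12 ± 0.37, adjusted p = 0.0076). The DKO libraries stood above the WT libraries throughout, as the rule that named these genes required. Cst7, which encodes the cathepsin inhibitor cystatin F, had 73.3 and 58.5 TPM in DKO, against 30.5 and 24.5 TPM in WT (1.23 ± 0.23, adjusted p = 0.0176), and Cpne7, a copine, had 6.28 and 7.39 TPM in DKO, against 2.21 and 3.11 TPM in WT (1.11 ± 0.18, adjusted p = 0.00331). Cst7 lost its call whichever library was left out (adjusted p from 0.0577 to 0.251), and Tmem140 and Cpne7 lost it without DKO replicate 2 or WT replicate 1 (adjusted p up to 0.144 and 0.102). The entry mmu-mir-155* and Flt1 were called each time. Entpd1, which encodes CD39, an enzyme that breaks down extracellular ATP, had 69.8 and 59.7 TPM in DKO, against 33.1 and 26.9 TPM in WT (1.09 ± 0.23, adjusted p = 0.0405), but was not called after median-ratio scaling, without the filter on low values or whichever library was left out (adjusted p from 0.137 to 0.395).

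Genes that carry the interferon signal from receptor to nucleus gave no call. None of 18 tested receptor and JAK-STAT genes and none of 11 tested IRF family genes was called by limma. At an unadjusted p under 0.05 the first list had 1 higher and 0 lower, and the second had 1 higher and 1 lower. Socs1, a feedback inhibitor of the receptors, had 39.5 and 52.0 TPM in DKO, against 3.58 and 17.8 TPM in WT, and its difference of 2.32 ± 0.89 did not pass the test (adjusted p = 0.514). Of 18 cytokine and chemokine genes 2 fell. Il15ra, which presents IL-15, had 2.97 and 2.95 TPM in DKO, against 9.25 and 8.38 TPM in WT (−1.31 ± 0.23), and Il18bp, a decoy for IL-18, had 0.74 and 0.23 TPM in DKO, against 2.06 and 2.25 TPM in WT (−1.11 ± 0.22). Il15ra lost its call whichever library was left out (adjusted p from 0.0693 to 0.143), and Il18bp lost it without DKO replicate 2, WT replicate 1 or WT replicate 2 (adjusted p over the 4 omissions from 0.0284 to 0.402). None of 10 checkpoint and costimulatory ligands was called by limma, with 3 higher and 0 lower at an unadjusted p under 0.05. Under the replicate block 3 of them were called higher: Cd274, which encodes PD-L1 (0.63, adjusted p = 0.0359), Cd40 (1.04, adjusted p = 0.00531) and Lgals9, galectin-9 (0.70, adjusted p = 0.00187).

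Markers of cell identity were measured beside these results, and their part in the results was not tested. The summed level of 16 dendritic cell markers was 1540 and 1376 TPM in DKO, against 1546 and 1373 TPM in WT. Of its 11 tested genes, Itgax, which encodes CD11c, had 36.4 and 38.7 TPM in DKO, against 66.0 and 62.3 TPM in WT (−0.76 ± 0.13, adjusted p = 0.00595), and Cd24a had −1.17 ± 0.25 (adjusted p = 0.0397). Itgax lost its call without DKO replicate 1 or WT replicate 1 (adjusted p up to 0.104), and Cd24a without DKO replicate 2, WT replicate 1 or WT replicate 2 (adjusted p up to 0.501). The sum of 14 macrophage and monocyte markers was 3159 and 2838 TPM in DKO, against 3615 and 3371 TPM in WT, with Ly6c2 listed at 0 in all 4 libraries. Lymphocyte markers summed to 1.62 and 1.82 TPM in DKO, against 3.83 and 3.75 TPM in WT, and 7 of the 14, among them Cd3e and Ms4a1, were listed at 0. Of 12 fibroblast and stromal markers 10 were under 1 TPM in all 4 libraries and 5, among them Col1a2 and Dcn, were listed at 0, while the sum was 707 and 780 TPM in DKO, against 610.1 and 699 TPM in WT. That sum came almost wholly from the few other members (2 of the 12 were tested), so it does not describe the list. No gene was called by limma among 25 cell cycle genes, with 0 higher and 1 lower at an unadjusted p under 0.05, or among 19 stress and immediate early genes, with 0 higher and 0 lower.

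The single lines place the DKO levels. Comparisons of DKO with the single lines and with WT share the DKO libraries, so values are given side by side and each difference has its own test. For a first set of genes DKO and IRF2KO stood at similar levels, far from IRF1KO and WT. Gsdmd had 2.92 and 2.58 TPM in DKO, against 3.80 and 2.56 TPM in IRF2KO, 33.5 and 30.5 TPM in IRF1KO and 33.7 and 28.5 TPM in WT. Gbp3 had 213 and 197 TPM in DKO, against 226 and 220.2 TPM in IRF2KO, 2.74 and 5.60 TPM in IRF1KO and 5.34 and 5.19 TPM in WT. Flt1 had 33.8 and 37.6 TPM in DKO, against 30.8 and 43.4 TPM in IRF2KO, 9.33 and 12.2 TPM in IRF1KO and 9.54 and 11.7 TPM in WT. The DKO and IRF2KO libraries of these genes overlap or nearly touch. The difference between DKO and IRF2KO had a 95% interval from −0.66 to 0.38 for Gsdmd, from −0.65 to 0.41 for Gbp3, from −0.47 to 0.39 for Flt1, from −0.43 to 0.56 for Arsb, from −0.45 to 0.26 for Ctso, from −0.28 to 0.82 for Acadl and from −0.40 to 0.24 for Ifih1. Changes of up to about the outer bound of each interval could therefore have gone unseen. The difference between DKO and IRF1KO was −3.14 ± 0.24 for Gsdmd, 5.37 ± 0.25 for Gbp3 and 1.65 ± 0.20 for Flt1, each called. In that comparison 79 genes were called (0.667%), 54 lower (0.456%) and 25 higher (0.211%).

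A second set was lower in DKO than in either single line. Psmb9 had 2.91 and 3.05 TPM in DKO, against 18.3 and 13.97 TPM in IRF2KO, 19.3 and 17.8 TPM in IRF1KO and 31.9 and 32.1 TPM in WT. Erap1 had 3.90 and 3.65 TPM in DKO, against 20.9 and 17.7 TPM in IRF2KO, 48.3 and 44.8 TPM in IRF1KO and 50.2 and 56.0 TPM in WT. Psmb8 had 93.7 and 81.1 TPM in DKO, against 363 and 315 TPM in IRF2KO, 134 and 150 TPM in IRF1KO and 180.45 and 186.7 TPM in WT. DKO was the lowest line for each of the 3, and for Psmb8 the IRF2KO libraries were above WT. The difference between DKO and IRF2KO was −2.09 ± 0.22 for Psmb9 (adjusted p = 0.000323), −2.08 ± 0.23 for Erap1 (adjusted p = 0.000425), −1.94 ± 0.12 for Psmb8 (adjusted p = 5.57e-07) and −1.43 ± 0.16 for Sp110 (adjusted p = 0.000323). Against IRF1KO the same genes differed by −2.29 ± 0.22 (Psmb9), −3.32 ± 0.23 (Erap1), −0.69 ± 0.12 (Psmb8) and −1.97 ± 0.16 (Sp110), all called. In all 14 genes were called between DKO and IRF2KO (0.118% of genes tested), 12 lower (0.101%) and 2 higher (0.0169%). The replicate block gave 23 calls, the compared groups fitted alone gave 0 and a required fold of at least 2 gave 1. Without IRF2KO replicate 1 the number was 7 and without DKO replicate 2 it was 8. Tap2 was among those that missed, with 11.6 and 5.09 TPM in IRF2KO and a difference of −1.39 ± 0.29 (adjusted p = 0.128). The 2 higher genes were Bcat1, an aminotransferase of branched-chain amino acids, and Armc10. Bcat1 had 23.5 and 26.1 TPM in DKO, against 9.15 and 13.1 TPM in IRF2KO, 14.5 and 14.8 TPM in IRF1KO and 12.6 and 13.5 TPM in WT. Bcat1 was higher in DKO than in the 3 other lines, at 1.11 ± 0.15 over IRF2KO (adjusted p = 0.00255) and 0.88 ± 0.15 over WT (adjusted p = 0.00618, up to 0.116 when DKO replicate 2 or WT replicate 1 was left out). The median over all genes was 0.13 in the comparison with IRF2KO and 0.01 after median-ratio scaling.

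**Figure D4:**
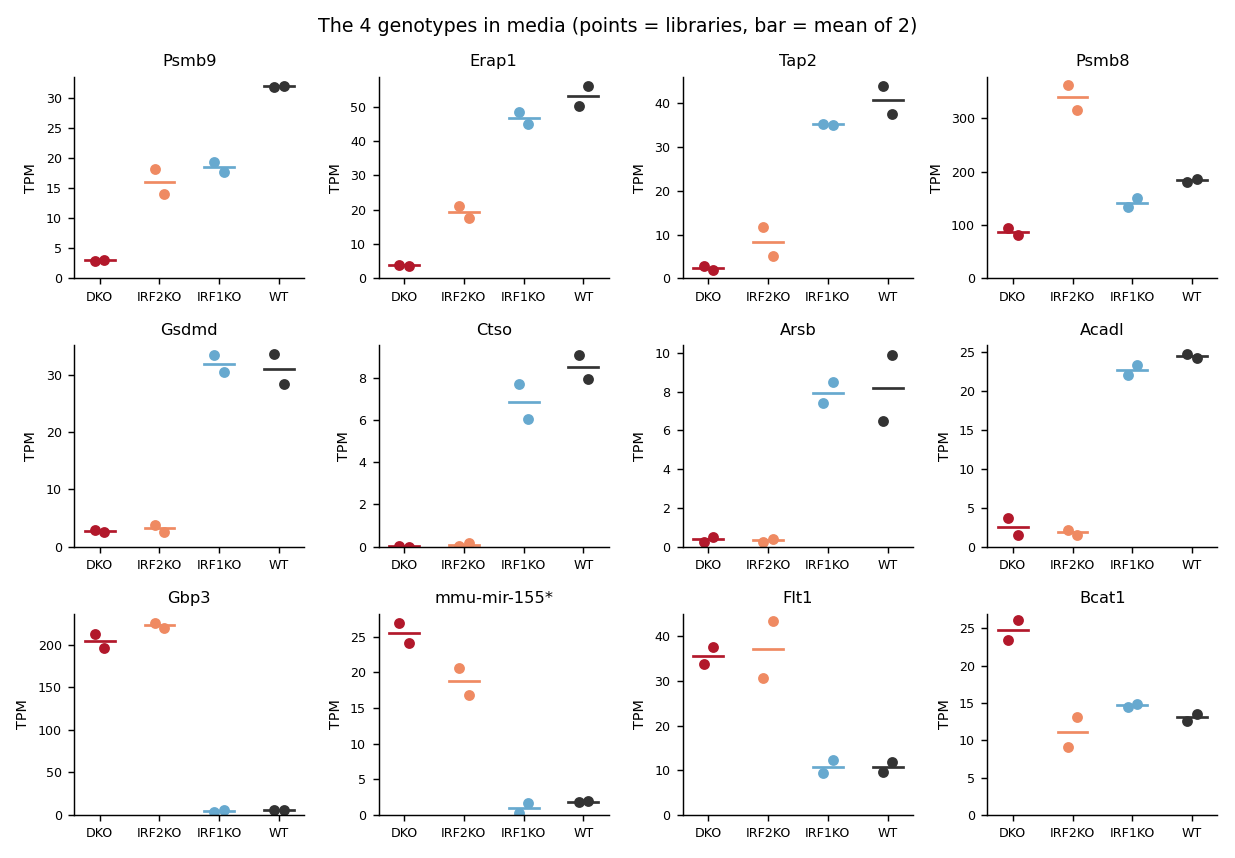
TPM of 12 genes in media in DKO, IRF2KO, IRF1KO and WT, with 2 libraries a line as points and their mean as a bar. Gsdmd, Ctso, Arsb, Acadl, Gbp3 and Flt1 have DKO and IRF2KO at one level and IRF1KO and WT at another, Psmb9 and Erap1 are lowest in DKO with IRF2KO between, and Psmb8 is highest in IRF2KO.

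Immunity-related GTPases, which attack the vacuoles of intracellular parasites and bacteria, gave other results than the guanylate-binding proteins. None of 9 tested members was called between DKO and WT by limma, with 0 higher and 1 lower at an unadjusted p under 0.05, and Irgm1 was called lower under the replicate block (adjusted p = 0.0313). Iigp1, Tgtp1, Tgtp2, Gm5431 and Gm12250 were under 1 TPM in all 4 DKO and WT libraries in media, so a fall in them could hardly be seen. Between DKO and IRF2KO 3 of the 9 were lower. Irgm1 had 8.93 and 7.80 TPM in DKO, against 22.9 and 21.4 TPM in IRF2KO, 13.03 and 11.1 TPM in IRF1KO and 13.03 and 11.8 TPM in WT. Its levels in IRF2KO were above WT, and those in DKO were the lowest of the 4 lines. Igtp had 6.34 and 4.91 TPM in DKO, against 16.4 and 18.6 TPM in IRF2KO, 8.65 and 6.46 TPM in IRF1KO and 7.92 and 6.13 TPM in WT. Irgm1 and Psmb8 were the 2 genes called for the difference of differences, (DKO minus IRF2KO) minus (IRF1KO minus WT), 0.0169% of genes tested. It asks whether lines that differ in IRF1 targeting differ by another amount where IRF2 is also targeted. With the compared groups fitted alone, or with a fold of at least 2 required, 0 genes were called. For Psmb8 the difference was −1.57 ± 0.17 (adjusted p = 0.00147), made of −1.94 with IRF2 targeted and −0.37 without. For Irgm1 it was −1.27 ± 0.18 (adjusted p = 0.0171), made of −1.31 with IRF2 targeted and −0.04 without.

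The DKO and WT libraries given interferon share no library with those in media, so they show the comparison in other samples. They come from the same lines, carry the same date-like codes and enter the same fit with 1 shared estimate of the spread, so they are not a separate experiment. Of the 63 genes lower at rest, 54 were called lower in DKO than in WT after IFNα, which is 85.7% of them and 66.7% of the 81 genes called lower there (0.684% of genes tested, and 1.05% with both directions). After IFNγ 57 of the 63 were called lower, 90.5% of them and 47.1% of the 121 called lower there (1.02%, and 1.31% with both directions). Of the 27 genes higher at rest, 19 were called higher after IFNα, 70.4% of them and 44.2% of 43 (0.363%), and 13 after IFNγ, 48.1% of them and 38.2% of 34 (0.287%). The genes called in all 3 conditions were 50 lower and 12 higher, and no gene was called in the opposite direction after either interferon. Under the replicate block the numbers called again after IFNα were 60 of the 63 and 21 of the 27, and after IFNγ 61 and 18. With the compared groups fitted alone, calls over all genes tested went from 124 to 26 after IFNα and from 155 to 3 after IFNγ. A required fold of at least 2 left 25 and 30.

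Gsdmd was at much the same level in all 3 conditions. It had 2.70 and 1.83 TPM in DKO with IFNα, against 34.8 and 32.3 TPM in WT, and 3.34 and 1.74 TPM in DKO with IFNγ, against 39.3 and 33.4 TPM in WT. Ctso, Rcn1 and Acadl likewise kept differences near those at rest, at −3.33, −2.85 and −2.99 with IFNα and −3.26, −2.93 and −3.03 with IFNγ. Flt1 had 1.55 ± 0.20 with IFNα and 1.57 ± 0.20 with IFNγ, and the entry mmu-mir-155* had 3.34 and 2.85. Tap2 had 3.74 and 3.52 TPM in DKO with IFNα, against 56.8 and 53.3 TPM in WT, and 5.01 and 5.86 TPM in DKO with IFNγ, against 72.5 and 74.9 TPM in WT. It remained below resting WT cells in every DKO library. Psmb9 had 8.60 and 13.2 TPM in DKO with IFNα, against 65.5 and 55.0 TPM in WT, and 11.8 and 21.1 TPM in DKO with IFNγ, against 79.9 and 81.7 TPM in WT. Tap1 had 29.3 and 40.2 TPM in DKO with IFNα, against 57.8 and 58.5 TPM in WT, and 46.6 and 61.3 TPM in DKO with IFNγ, against 99.7 and 102 TPM in WT. Tap1 thus passed the resting WT level in the interferon-treated DKO libraries, and Tap2 did not.

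Of the 10 tested guanylate-binding protein genes 6 were called higher and 1 lower in DKO with IFNα, and 3 were called higher and 3 lower with IFNγ. Those called lower with IFNγ were Gbp11 (−2.30 ± 0.20), Gbp6 (−1.63 ± 0.21) and Gbp10 (−1.49 ± 0.19), of which Gbp11 was also called lower with IFNα (−1.13 ± 0.20). For 4 of the 7 genes higher at rest the difference was called as changed with IFNγ, each time toward a smaller one. No call for the others does not show that their differences held. Gbp5, for example, had 1.88 ± 0.22 with IFNγ, against 2.58 ± 0.22 in media. Gbp2 had 380.4 and 364 TPM in DKO with IFNγ, against 334 and 344 TPM in WT, a difference of 0.14 with an SE of 0.41 and a 95% interval from −0.73 to 0.997. Gbp3 had 237 and 296 TPM in DKO with IFNγ, against 52.8 and 64.8 TPM in WT (2.16 ± 0.25). All DKO and WT libraries with IFNγ were above the resting libraries of their own line for both genes. The change of the difference from media to IFNγ was −5.38 ± 0.57 for Gbp2 (adjusted p = 0.000258), −2.88 ± 0.35 for Gbp3 (adjusted p = 0.000855), −2.53 ± 0.39 for Gbp4 (adjusted p = 0.011) and −2.04 ± 0.23 for Gbp7 (adjusted p = 0.000423). These were the genes called higher at rest whose difference was called as changed by IFNγ, in a test that called 11 genes in all (0.0929%). With IFNα Gbp2 had 330 and 279 TPM in DKO, against 34.8 and 33.7 TPM in WT (3.11 ± 0.41), and Gbp3 had 314 and 320 TPM in DKO, against 25.5 and 26.5 TPM in WT (3.56 ± 0.25). The 10 genes whose difference was called as changed by IFNα (0.0844%, with 0.0507% upward and 0.0338% downward) included none of the 90 called at rest.

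**Figure D5:**
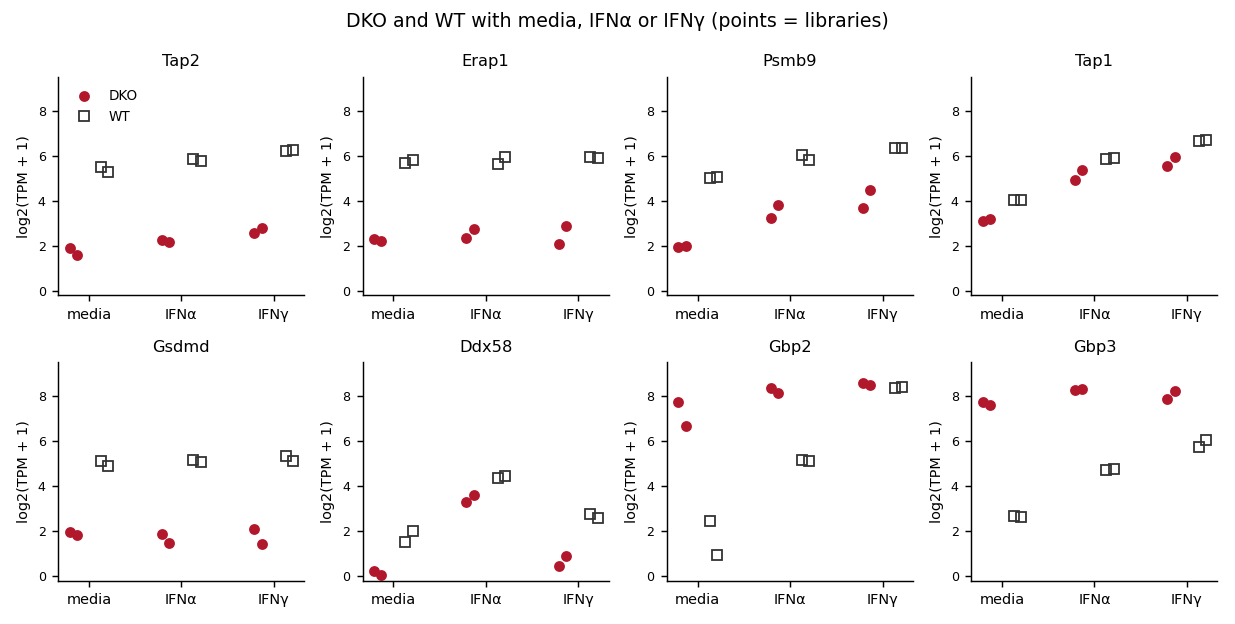
Values of 8 genes, in log2(TPM + 1), in DKO (filled circles) and WT (open squares) with media, IFNα and IFNγ, 2 libraries each. Tap2, Erap1 and Gsdmd stay low in DKO in all 3 conditions, Psmb9 and Tap1 climb in both lines, and Gbp2 reaches one level in both lines with IFNγ, where DKO has 380.4 and 364 TPM and WT has 334 and 344 TPM.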

How the data were processed

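The authors deposited 1 table of TPM values, made with RSEM, Bowtie 0.12.2 and bcl2fastq 2.20 on builds named mm10 and GRCm38, per the submitters' processing notes. TPM keeps no read counts, so no count model was run and sequencing depth is unknown. The table's 41346 rows carry 31427 gene symbols, and rows that share a symbol were summed. No pair of libraries was identical.

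For testing, limma 3.58.1 (R 4.3.3) modelled log2(TPM + 1) by 12 group means over 24 libraries with a trended prior variance. The 11842 genes that reached 1 TPM in 2 or more libraries were tested, two-sided, with 12 residual degrees of freedom and Benjamini-Hochberg adjustment per comparison. A call is an adjusted p under 0.05. Exact permutation of 2 against 2 libraries cannot go below p = 0.333 and was not used. The method was tested on simulated data. Python 3.11.15 with matplotlib 3.10.9 drew the plots and searched promoters.

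Same-numbered samples share a date-like code in their titles and were taken as pairs, so a replicate block was an alternative. Their deviations from group means had r over 0.1 in 56 of 66 group pairs, with a median of 0.233 (lowest −0.16, highest 0.481) and 0.292 for DKO with WT in media. A code holds 1 library a group in media, so within a code there is a difference but no test.

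Genes were named by rule: the 12 called with the largest fold each way (5 TPM or more on average in the higher group, no overlap), up to 4 called members of each of 20 lists, 22 fixed names and up to 5 called each way in other comparisons. Other named genes, among them Gca, Mov10, Entpd1, Slfn9, Mndal, Coro2a and uncalled list members, were chosen after their values were seen. The comparison, the lists and the rule were chosen with earlier results of these data known. The other alternatives were pseudocounts of 0.1 or 5, no low-value filter, a filter at a mean of 5 TPM, median-ratio or quantile scaling, a fold of at least 2, the compared groups alone and omission of each library. RefSeq promoter windows matched 67 of the 90 called genes by symbol, and 85 had a RefSeq position.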

Additional observations from a re-analysis of the deposited data

Results flagged for a closer look

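The difference between DKO and WT, or between lines that differ in IRF1, was tested for whether it changed with condition or background. The genes that passed are given here as changes of a difference in log2(TPM + 1). In media, the difference between DKO and IRF2KO less that between IRF1KO and WT was −1.57 for Psmb8 and −1.27 for Irgm1.

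Between media and IFNα the DKO minus WT difference changed by −3.24 for Gm12250, −2.12 for Iigp1, −1.82 for Oasl2 and −1.57 for Ifi47, of which Gm12250, Iigp1 and Ifi47 are in the list of immunity-related GTPases. The change was 1.55 for Mx2, 1.58 for Parp10, 1.60 for Trim21, 1.72 for Gm14446, 1.82 for I830012O16Rik and 2.80 for Rsad2. Rsad2, which encodes the antiviral enzyme viperin, had 23.3 and 22.02 TPM in DKO with IFNα, against 2.35 and 2.12 TPM in WT. At rest Rsad2 had 0.00 and 0.10 TPM in DKO, against 0.00 TPM in both WT libraries.

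Between media and IFNγ the difference changed by −5.38 for Gbp2, −4.11 for Iigp1, −3.28 for Gm12250, −2.88 for Gbp3, −2.75 for Tgtp2, −2.74 for Ifi47, −2.53 for Gbp4, −2.50 for Gbp11, −2.12 for Tgtp1, −2.04 for Gbp7 and −2.02 for BC023105. Iigp1 had 2.19 and 5.41 TPM in DKO with IFNγ, against 78.1 and 79.4 TPM in WT. At rest Iigp1 had 0.32 and 0.40 TPM in DKO, against 0.29 and 0.50 TPM in WT. Tgtp2, BC023105 and I830012O16Rik were listed at 0 in all DKO and WT libraries in media.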

How the results depend on the processing

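No called gene reversed under any alternative run, and 12 of the 90 genes called between DKO and WT in media were called in every one, as were 3 others in every one that tested them (they were not tested under the filter at a mean of 5 TPM), whereas 53 lost the call when at least 1 of the 4 libraries was left out and 26 when any of them was. The cause of each shift in a count was not tested. The replicate block gave 190 calls between DKO and WT in media (85 higher, 105 lower), 23 between DKO and IRF2KO, 201 between DKO and IRF1KO, 260 with IFNα, 362 with IFNγ and 17 for the change from media to IFNγ. A required fold of at least 2 gave, for these comparisons, 24 (6 higher, 18 lower), 1, 24, 25, 30 and 4 calls, with 0 for the difference of differences and 1 for the change to IFNα. Fitting the compared groups alone, with fewer residual degrees of freedom, gave 20 (4 higher, 16 lower), 0, 14, 26, 3 and 3, with 0 and 4 for the other 2. That fit called 1 cell death gene lower in place of 2, 1 cathepsin gene in place of 2, and 0 in place of 2, 1 and 2 among cytokines, fatty acid oxidation enzymes and dendritic cell markers. A mean of at least 5 TPM, which tests fewer genes, left 40 lower calls between DKO and WT in media, 52 between DKO and IRF1KO, 78 with IFNα, 92 with IFNγ and 6 for the change to IFNα. Pseudocounts of 0.1 and 5 gave 22 and 8 calls between DKO and IRF2KO and 1 and 16 for the change to IFNα. A pseudocount of 5 gave 1 for the difference of differences and a pseudocount of 0.1 gave 7 for the change to IFNγ. With no filter there were 4, 16 and 17 calls for the difference of differences and the changes to IFNα and IFNγ, and median-ratio scaling gave 4 for the first. Leaving out 1 library gave 42 to 54 calls between DKO and WT in media (11 to 14 higher, 31 to 40 lower), 7 to 11 between DKO and IRF2KO, 38 to 52 between DKO and IRF1KO, 1 to 2 for the difference of differences, 70 to 95 with IFNα, 94 to 151 with IFNγ, 3 to 10 for the change to IFNα and 8 to 13 for the change to IFNγ. The shorter promoter letters AA, any 2 bases and GAAA, chosen after seeing the data, stood in 50% of higher, 38.3% of lower and 19% of all tested genes with a window. With 2 libraries a group and no read counts, small changes and genes near 0 TPM are measured least well.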

Other observations

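Entries with a difference over 2 in size on the log2(TPM + 1) scale that were not called between DKO and WT in media numbered 11, and 2 of them passed under the replicate block. They were singled out after their values were seen. Hist1h3b, a histone gene of dividing cells, had 0.45 and 0.11 TPM in DKO, against 15.4 and 7.54 TPM in IRF2KO, 7.10 and 4.12 TPM in IRF1KO and 7.88 and 7.05 TPM in WT (−2.74 ± 0.61, adjusted p = 0.055, and 0.0351 with the block). The resting DKO libraries were the lowest of the 4 lines for this gene, while the 25 cell cycle genes had a median of −0.06. The entry AB349811 had 26.5 and 388 TPM in DKO and 0 TPM in the libraries of IRF2KO, IRF1KO and WT in media (6.69 ± 1.70, adjusted p = 0.112, and 0.026 with the block), so its level differs widely between the 2 DKO libraries.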
